A study of Mus musculus with 6 samples.

Results

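A set of 9 genes of apoptotic cell uptake was examined in CD8-negative dendritic cells of the mouse spleen: the receptor tyrosine kinase genes Axl, Mertk and Tyro3, their ligand genes Gas6 and Pros1, the phosphatidylserine receptor genes Timd4 and Stab1, the bridging protein gene Mfge8 and the scavenger receptor gene Cd36. They are a named set of genes known for this function, put together with earlier results of these data known, and all 9 were matched by Entrez identifier among the 27179 genes of the count table. Polyadenylated RNA was sequenced in 6 libraries, 3 of untreated and 3 of CpG-pretreated cells, all from C57BL/6 mice. CpG DNA stimulates Toll-like receptor 9. The title of the series places these cells, called paralysed, after a systemic inflammation. Per the labels, the cells were sorted from enriched spleen preparations and lysed without culture. For the CpG dose and timing, the age of the mice and any pooling of mice, the labels give nothing. Each group held replicates 2, 3 and 4, which the series text calls biological. What a number stands for is not stated, so p-values measure the spread between these libraries only.

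Dying cells expose phosphatidylserine on their outer surface, and phagocytes recognise it either directly or through soluble bridges. Timd4 and Stab1 encode receptors that bind the lipid themselves. Gas6 and protein S, the product of Pros1, bind it through a vitamin K-dependent domain and engage the receptors encoded by Tyro3, Axl and Mertk, together called the TAM receptors, whose signalling also restrains cytokine and Toll-like receptor responses. Mfge8 encodes a secreted protein that links phosphatidylserine to alpha-v integrins. In spleen, macrophages of the red pulp and marginal zone and the CD8-positive dendritic cells are known for the uptake of dead cells.

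The members called lower in the fit that pairs libraries by number, Axl, Mertk and Stab1, are shown by the RefSeq promoter sequence of the GRCm38.p6 build, 250 bases before to 50 after the start of transcription, 5′ to 3′ on the gene's strand. Capitals mark the GC box, GGGCGG read on either strand, which is the binding motif of Sp-family factors. The windows are chr7:25788684-25788983 on the minus strand for Axl, chr2:128698665-128698964 on the plus strand for Mertk and chr14:31168592-31168891 on the minus strand for Stab1. The start used for Axl is not the outermost 1 of the gene, which reaches to 25788924, so most of its window lies within the gene. The start used for Stab1 also lies slightly inside its gene, which reaches to 31168651.
Axl: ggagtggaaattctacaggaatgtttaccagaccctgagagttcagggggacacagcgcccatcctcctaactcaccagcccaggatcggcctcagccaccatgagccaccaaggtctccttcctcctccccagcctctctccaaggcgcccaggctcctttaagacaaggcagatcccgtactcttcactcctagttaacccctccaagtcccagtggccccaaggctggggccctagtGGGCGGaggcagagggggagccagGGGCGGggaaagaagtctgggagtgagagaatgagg
Mertk: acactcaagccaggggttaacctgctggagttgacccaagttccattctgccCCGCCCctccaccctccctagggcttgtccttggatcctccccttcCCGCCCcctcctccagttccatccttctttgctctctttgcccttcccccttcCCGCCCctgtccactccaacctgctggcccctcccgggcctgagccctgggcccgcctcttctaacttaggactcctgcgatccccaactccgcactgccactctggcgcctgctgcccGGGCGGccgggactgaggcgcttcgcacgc
Stab1: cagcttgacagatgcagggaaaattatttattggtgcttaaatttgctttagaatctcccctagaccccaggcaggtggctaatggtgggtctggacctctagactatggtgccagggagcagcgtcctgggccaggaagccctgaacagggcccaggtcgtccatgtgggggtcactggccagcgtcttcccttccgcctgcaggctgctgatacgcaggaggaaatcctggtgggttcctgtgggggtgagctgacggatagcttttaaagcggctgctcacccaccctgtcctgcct
The Axl window held 2 GC boxes and the Mertk window 4, while the Stab1 window held 0. Of the 9 promoters 7 held at least 1 GC box (all but Timd4 and Stab1), against 35.7% of 32851 promoters of the same length. Further motifs were searched on both strands without regard to overlap. The core of the interferon-stimulated response element (3.44% of all promoters), the AP-1 motif TGANTCA (7.81%) and the TATA box TATAAA (13.6%) were in 0 of the 9 windows. The STAT motif TTCNNNGAA (8.30% of all promoters) was in the Pros1 window only. The ETS core GGAAGT (23.8%) and the nuclear receptor half-site AGGTCA (16.3%) were each in the Timd4 and the Cd36 window. These matches describe letters and were not tested as binding sites.

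Library totals lay between 7855500 and 8228140 counts, so that 1 count was worth 0.123 to 0.127 CPM (counts scaled to library size, here on library sizes scaled by the trimmed mean of M-values, TMM). The 7 dendritic cell core markers, among them Itgax, Flt3, Zbtb46 and class II genes, summed to between 39643 and 47767 CPM in untreated and between 36459 and 42982 CPM in CpG-pretreated libraries, with 0 of 7 called in either fit. Of the 8 markers of the CD8-negative type (cDC2), 1 was called lower by edgeR (Esam, -0.75 on the log2 scale, adjusted p = 0.0444) and 3 with the block (Esam, Cd209a and Dtx1), and their sum was 2668 to 3030 CPM and 2344 to 2965 CPM. Cd8a was between 1.23 and 4.69 CPM in all 6 libraries. Other markers of the CD8-positive type (cDC1) were present, the 10 summing to 1804 to 2946 CPM and 2131 to 2775 CPM, mostly Wdfy4. Of these, 0 were called without the block and 4 were called higher with it (Xcr1, Tlr3, Irf8 and Itgae). Cadm1, Batf3 and Wdfy4 had log2 fold changes below 0 and were called in neither fit. Over all genes tested, 0.500% were called lower without the block, and 3.78% lower and 4.73% higher with it. Itgae had 8 to 10 counts untreated, against 49 in CpG 2, 76 in CpG 3 and 6 in CpG 4. It reached the filter on low counts, given below, only in CpG 2, CpG 3 and untreated 3, so its call adds no support to the 4. Markers of other cells were present, and the sums of some of these lists, though not of all, differed between the groups. The 14 red pulp macrophage markers summed to 711 to 835 CPM in untreated and 441 to 598 CPM in CpG-pretreated libraries, with none at 0. The 10 erythroid markers counted summed to 43.1 to 116 CPM and 263 to 1149.8 CPM, with Hba-a1 at 0 throughout. Both libraries numbered 2 stood apart from their groups in a trend with gene length (Spearman correlation of a gene's deviation from its group mean with its length, across the 11602 tested genes, of -0.67 in untreated 2 and -0.55 in CpG 2).

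By edgeR's quasi-likelihood test none of the 7 members that passed the filter on low counts was called at an adjusted p under 0.05, where 0.974% of all 11602 genes tested were (0.500% lower and 0.474% higher). At an unadjusted p under 0.05, which 12.8% of all genes reached, there were Axl and Stab1. With the replicate number as a block, Axl, Mertk and Stab1 were called lower, 3 of the 7, against 3.78% of all genes called lower, 4.73% called higher and 8.52% in either direction in that fit. Of the members DESeq2 called Axl alone, with 3.69% of all genes called. The groups did not overlap for Axl and Stab1, both lower, where 9.47% of all tested genes did not overlap in that direction, 9.20% in the other and 18.7% in either. The median log2 fold change of the 7 was -0.10, beside -0.01 over all genes tested. Tyro3 and Gas6 did not reach the filter, which asked for about 10 counts in at least 3 libraries. Stab1 reached it in all 3 untreated but only 1 CpG-pretreated library, so its passing rested on the group where it was high, and its call adds no support to the count.

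**Figure D1:**
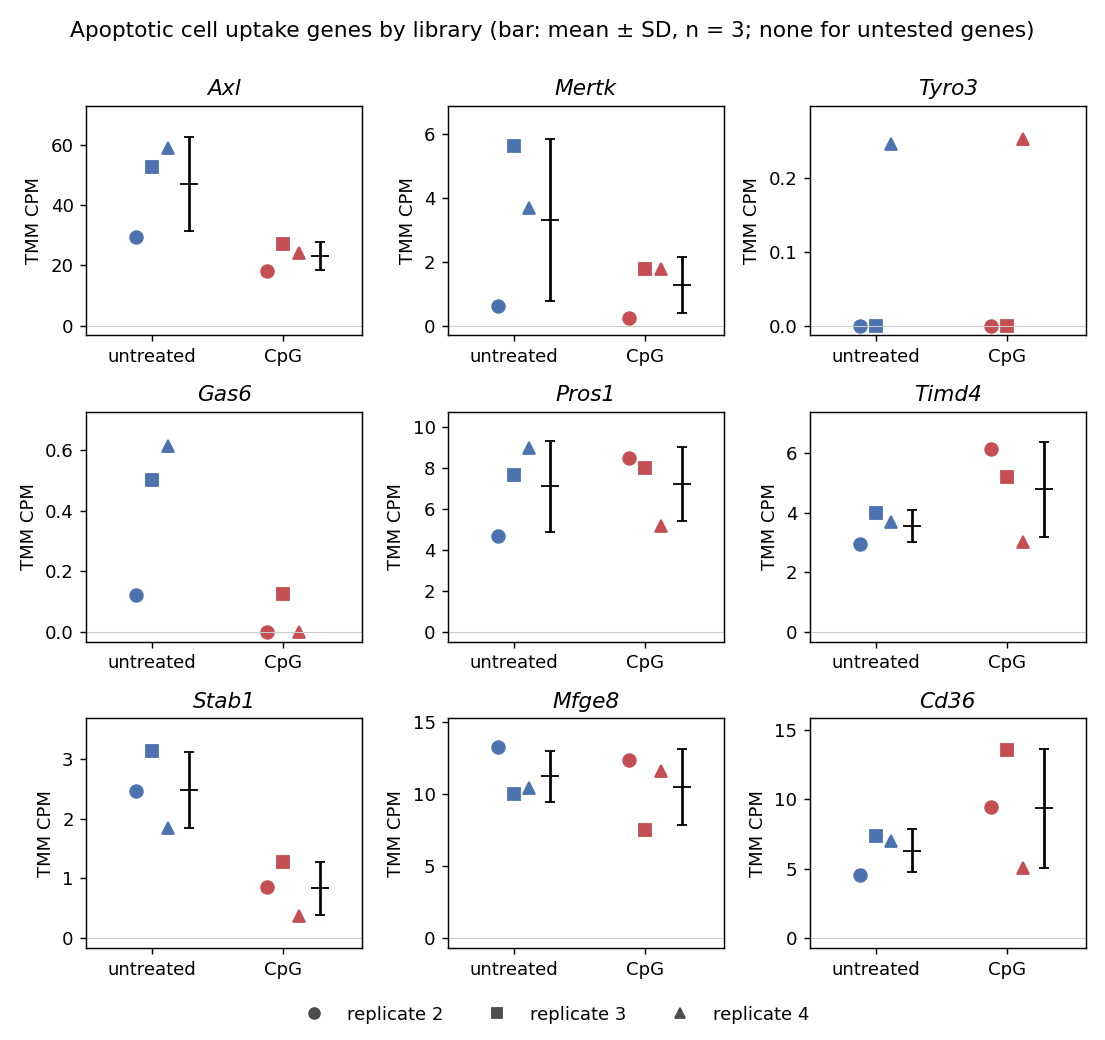
CPM on TMM-scaled library sizes (vertical axes, a scale of its own for each gene) of the 9 genes in the 3 untreated (blue) and 3 CpG-pretreated (red) libraries, with the symbol shape giving the replicate number and the bar the mean and SD of a group (none for the untested Tyro3 and Gas6). All CpG-pretreated values of Axl (18.0 to 27.0 CPM) and Stab1 (0.378 to 1.27 CPM) lie below the untreated ones, while the groups of the other genes overlap.

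Levels of different genes were compared per length, as CPM per kilobase of the gene length in the count table. The order depends on that length, above all for Mfge8, with 2126 bases in the table against 4694 bases in the union of its GENCODE exons (2.21 times as many, where the other members differ by 0.914 to 1.55 times). In untreated cells Axl (9.25 ± 3.08 CPM per kilobase, SD, n = 3) and Mfge8 (5.29 ± 0.834) stood highest. Their ranges overlapped each other, and every Mfge8 value was above every value of Pros1 (2.17 ± 0.673). Timd4 (1.63 ± 0.248), Cd36 (1.61 ± 0.392) and Mertk (0.931 ± 0.711) followed, each overlapping its neighbour in the order. Stab1 (0.310 ± 0.0802), Gas6 (0.159 ± 0.0992) and Tyro3 (0.0205 ± 0.0356) were lowest, again with overlapping neighbours. With union exon lengths, added after seeing the data, every Axl value (5.84 to 11.7 CPM per kilobase) was above every Mfge8 value (2.13 to 2.83), and Mfge8 overlapped Pros1 (1.14 to 2.19).

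After CpG pretreatment Mfge8 (4.93 ± 1.24 CPM per kilobase) and Axl (4.53 ± 0.900) were first in the order and overlapped each other, and both were above Cd36 (2.38 ± 1.09) by their means. The lowest Axl value was above the highest Cd36 value. With union exon lengths Axl (3.58 to 5.37 CPM per kilobase) was above every Mfge8 value (1.59 to 2.64) and overlapped Cd36 (1.40 to 3.78), so which of Axl and Mfge8 is higher after CpG is not settled by these data. Pros1 (2.20 ± 0.546) and Timd4 (2.20 ± 0.734) overlapped Cd36 and one another, and each Timd4 value was above each Mertk value (0.355 ± 0.248). The ratio of Axl to Mfge8 per kilobase was 0.925, 2.20 and 2.37 in untreated replicates 2, 3 and 4, against 0.609, 1.51 and 0.868 in CpG-pretreated libraries 2, 3 and 4. With union exon lengths the ratio was above 1 in all 6 libraries, from 1.36 to 5.28. Its mean on the log2 scale differed by -0.86, which the choice of length does not alter, and the groups overlapped (exact permutation test, two-sided, p = 0.2, where the smallest p that 3 against 3 libraries allow is 0.1). The ratio was lower after CpG in each same-numbered pair, which that test does not use. This ratio was added after the levels had been seen.

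Axl (Entrez 26362; GRCm38 chromosome 7, 25756500 to 25788924, minus strand) encodes the TAM receptor whose ligand is Gas6. It stood at 29.4, 52.6 and 59.1 CPM without CpG (libraries 2, 3 and 4) and at 18.0, 27.0 and 24.1 CPM after CpG, in the same order. Every CpG-pretreated library was below every untreated one, with untreated 2 the closest to the other group. The means were 47.0 ± 15.6 and 23.0 ± 4.58 CPM (SD, n = 3), a level 2.04-fold higher in untreated cells. The log2 fold change of CpG-pretreated over untreated was -1.03 (SE 0.26, 95% interval -1.62 to -0.44), with an unadjusted p of 0.00373 by edgeR and an adjusted p of 0.110. With the replicate block Axl fell by 1.005 on the log2 scale (SE 0.12, edgeR adjusted p = 0.000164), and it was lower in 3 of 3 same-numbered pairs, by -0.70, -0.96 and -1.29 in pairs 2, 3 and 4 (log2 CPM with a prior count of 2, here and for the pairs below). Without untreated replicate 2 the difference was -1.27 (edgeR adjusted p = 0.0304), without both libraries numbered 2 it was -1.13 (adjusted p = 0.0208), and DESeq2 gave -1.02 (adjusted p = 0.00529). Over all 15 alternatives it ranged from -1.27 to -0.83, with adjusted p from 0.000164 to 0.346.

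Mertk (Entrez 17289; chromosome 2, 128698915 to 128803162, plus strand), the receptor that macrophages are best known to use for engulfing dead cells, was sparse. It had 5, 45 and 30 counts in untreated replicates 2, 3 and 4, against 2, 14 and 14 in CpG-pretreated ones, or 0.614, 5.63 and 3.69 CPM against 0.245, 1.78 and 1.76 CPM. Both libraries numbered 2 were the lowest of their group, and untreated 2 lay below CpG-pretreated 3 and 4, so that the groups overlapped. The log2 fold change was -1.39 (SE 0.76, 95% interval -3.12 to 0.35, edgeR adjusted p = 0.537). With the block Mertk fell by 1.37 on the log2 scale (SE 0.33, edgeR adjusted p = 0.0203), lower in 3 of 3 pairs. Without both libraries numbered 2 the value was -1.39 (adjusted p = 0.148), and single libraries left out moved it from -0.77 (without untreated replicate 3) to -1.86 (without untreated replicate 2), with no call.

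Tyro3 (Entrez 22174; chromosome 2, 119797740 to 119818104, plus strand), the TAM receptor known mainly from the nervous system, had 2 counts in untreated 4, 2 in CpG 4 and 0 in the other 4 libraries, where a count of 0 allows up to 0.368 to 0.380 CPM by counting error alone. Summed over libraries, the ratio of CpG-pretreated to untreated was 1.01 with an exact 95% counting interval of 0.0734 to 13.96, so no difference was detectable at this depth. Axl made up 97.1, 86.7 and 91.4% of the summed level of the TAM receptors per kilobase without CpG (libraries 2, 3 and 4), and 98.1, 91.4 and 89.4% in CpG-pretreated ones. These shares overlapped (91.7 ± 5.19% and 93.0 ± 4.54%, exact permutation test, two-sided, p = 0.7), and the sign of their difference of 1.24 percentage points turned without untreated replicate 3 (-1.25) or CpG replicate 2 (-1.31).

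The TAM ligands differed from each other in level. Gas6 (Entrez 14456; chromosome 8, 13465374 to 13494535, minus strand), which activates all TAM receptors, had 1, 4 and 5 counts in untreated replicates 2, 3 and 4, against 0, 1 and 0 in CpG-pretreated ones. These counts came to 0.123 to 0.615 CPM in the untreated libraries and 0.127 CPM in CpG 3, which was above untreated 2, so the groups overlapped, and a count of 0 in CpG 2 and 4 allows up to 0.368 and 0.378 CPM. The summed ratio of CpG-pretreated to untreated was 0.101, with an exact 95% counting interval of 0.00233 to 0.712 that does not include the spread between replicates. Without the filter on low counts edgeR gave Gas6 a p of 0.0261 and an adjusted p of 0.361. Its exons share 34 bases with Tmem255b on the other strand, and Tmem255b had 1 count in 1 library.

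Pros1 (Entrez 19128; chromosome 16, 62854307 to 62929346, plus strand) encodes protein S, an anticoagulant plasma protein that also serves as a ligand of Mertk and Tyro3. It was at 4.67, 7.63 and 8.97 CPM without CpG (libraries 2, 3 and 4) and at 8.46, 7.99 and 5.16 CPM after CpG, in the same order. The groups covered about the same range, with untreated 2 and CpG 4 the lowest of their groups. The log2 fold change was 0.02 (SE 0.29, 95% interval -0.63 to 0.68, edgeR adjusted p = 0.987), with pair differences of 0.82, 0.07 and -0.77. Its sign was not fixed, since it turned in 4 of 15 alternatives (to between -0.33 and -0.05).

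**Figure D2:**
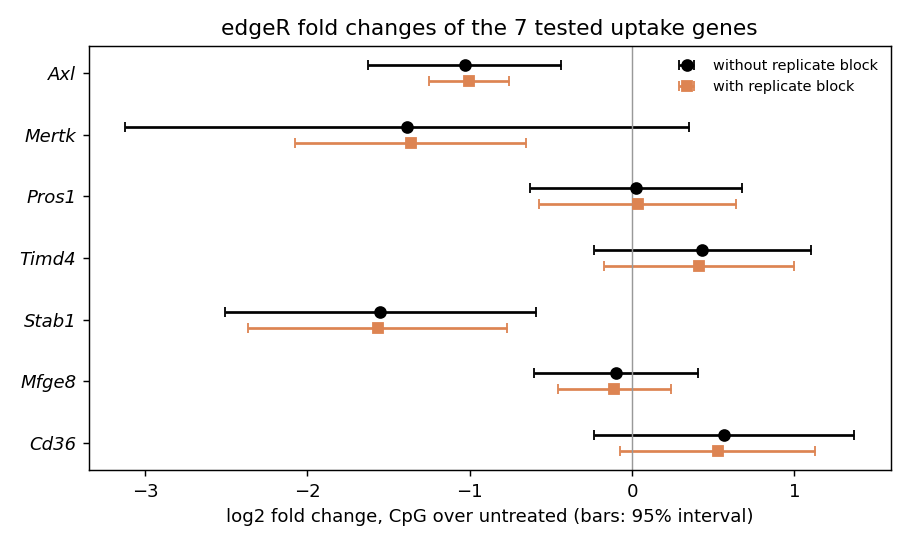
Log2 fold change of CpG-pretreated over untreated (horizontal axis) for the 7 tested genes, by edgeR without (black circles) and with the replicate number as a block (orange squares), with 95% intervals. The values of the fits lie close together, and the interval of Mertk is the one that includes 0 without the block (-3.12 to 0.35) and not with it (-2.07 to -0.66).

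The direct phosphatidylserine receptors had differences of opposite sign, of which that of Stab1 was called with the block and that of Timd4 in neither fit. Stab1 (Entrez 192187; chromosome 14, 31139017 to 31168651, minus strand) encodes stabilin-1, a scavenger receptor of macrophages and sinusoidal endothelium. It had 20, 25 and 15 counts in untreated replicates 2, 3 and 4, against 7, 10 and 3 in CpG-pretreated ones, or 2.46, 3.13 and 1.84 CPM against 0.859, 1.27 and 0.378 CPM. The groups did not overlap. The log2 fold change was -1.55 (SE 0.42, 95% interval -2.51 to -0.59) with an unadjusted edgeR p of 0.00544 and an adjusted p of 0.133. With the block Stab1 fell by 1.57 on the log2 scale (SE 0.37, edgeR adjusted p = 0.0180), a call to be read with its passing of the filter through the untreated group, with pair differences of -1.29, -1.15 and -1.74. Without a filter on low counts edgeR gave Stab1 -1.55 (adjusted p = 0.119), and DESeq2 gave -1.56 (adjusted p = 0.122). Exons of Stab1 share 112 bases with Nt5dc2 on the other strand, and no label gives the strand setting of the counting, so reads there cannot be assigned. Nt5dc2 itself was at 6.54 ± 1.001 and 5.91 ± 1.72 CPM (a log2 difference of -0.15, edgeR adjusted p = 0.914).

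Timd4 (Entrez 276891; chromosome 11, 46810786 to 46844333, plus strand) encodes TIM-4, a phosphatidylserine tether of resident macrophages. It was at 2.95, 4.00 and 3.69 CPM without CpG (libraries 2, 3 and 4) and at 6.13, 5.199 and 3.02 CPM after CpG, in the same order. CpG 2 and 3 were above all untreated libraries and CpG 4 was among them. The log2 fold change was 0.43 (SE 0.29, 95% interval -0.24 to 1.102, edgeR adjusted p = 0.651, and 0.422 with the block). This interval does not reach the values found for Axl, Mertk or Stab1, though the difference between the genes was not tested.

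Cd36 (Entrez 12491; chromosome 5, 17781690 to 17888959, minus strand) encodes a class B scavenger receptor for oxidised lipids and thrombospondin that is also known from CD8-positive dendritic cells and macrophages. It was at 4.55, 7.38 and 7.01 CPM without CpG (libraries 2, 3 and 4) and at 9.44, 13.6 and 5.04 CPM after CpG, in the same order. As with Timd4, CpG 2 and 3 lay above all untreated libraries and CpG 4 did not. The log2 fold change was 0.57 (SE 0.35, 95% interval -0.23 to 1.37, edgeR adjusted p = 0.604, and 0.297 with the block).

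Mfge8 (Entrez 17304; chromosome 7, 79133768 to 79149060, minus strand), the integrin bridge, was at 13.3, 10.002 and 10.4 CPM without CpG (libraries 2, 3 and 4) and at 12.4, 7.48 and 11.6 CPM after CpG, in the same order. The groups overlapped, and the log2 fold change was -0.10 (SE 0.22, 95% interval -0.60 to 0.40, edgeR adjusted p = 0.936). A change of the size measured for Axl lies outside that interval. The sign turned without untreated replicate 2 (0.05) and without CpG replicate 3 (0.10).

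**Figure D3:**
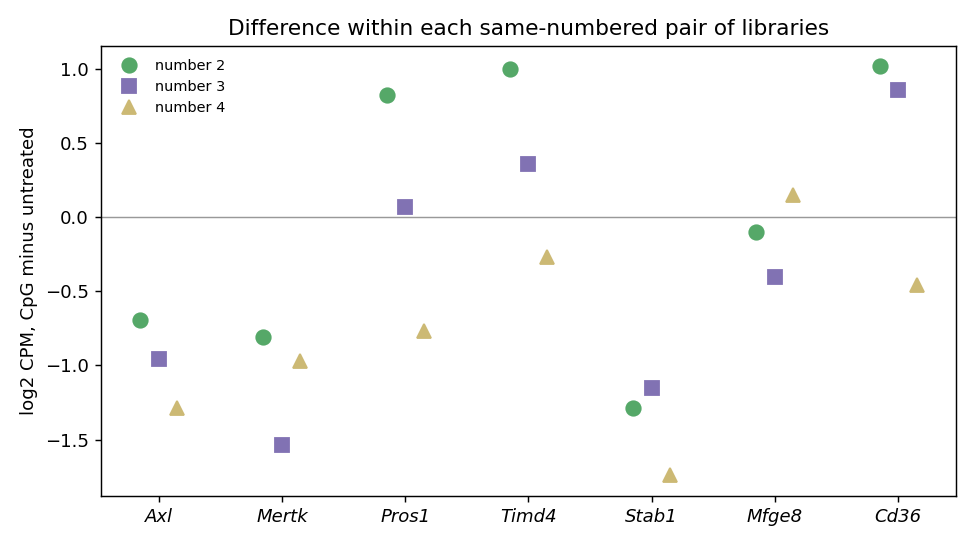
Difference in log2 CPM (CpG-pretreated minus untreated, vertical axis) within each pair of libraries that carry the same replicate number, for the 7 tested genes. Axl, Mertk and Stab1 are below 0 in all 3 pairs, and Pros1, Timd4 and Cd36 are above 0 in pairs 2 and 3 and below 0 in pair 4 (-0.77, -0.27 and -0.46).

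The members thus differed in how steady they were across the numbered pairs. Pair 4 gave the lowest difference of the 3 pairs for Pros1, Timd4 and Cd36, whose pair differences ran to 0.82, 0.997 and 1.02 in pair 2. It was also the lowest for Axl (-0.70, -0.96 and -1.29 in pairs 2, 3 and 4) and Stab1 (-1.29, -1.15 and -1.74). A low pair 4 is thus not particular to Pros1, Timd4 and Cd36. CpG 4 also had the smallest erythroid sum of its group, 263 CPM beside 1149.8 and 1088 CPM. The median pair difference of the erythroid list was 5.13, 3.37 and 2.88 in pairs 2, 3 and 4, and that of the CD8-positive type (cDC1) list 0.91, 0.59 and -0.01. The part of these cells in the values of Pros1, Timd4 and Cd36 was not tested.

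Macrophage markers differed between the groups in the direction of Axl. Of the 14 red pulp macrophage markers, edgeR called 6 lower, 11 with the block, and 0 higher, with a median log2 fold change of -1.08 beside -1.03 for Axl. Over all genes tested, 0.500% were called lower without the block and 3.78% with it. Fcna, in both counts of lower markers, had 65, 133 and 104 counts in untreated and 8, 23 and 27 in CpG-pretreated libraries 2, 3 and 4. It passed the filter on low counts through the untreated group, where it was high, so its call adds no support to these counts. The list's median pair difference was -1.16, -1.22 and -1.34. Its defining transcription factor gene Spic ranged from 15.4 to 18.6 CPM without CpG and from 8.71 to 12.4 CPM after it (-0.66 on the log2 scale, edgeR adjusted p = 0.120, with the block 0.00948). The 4 marginal zone macrophage markers summed to 25.8 to 33.2 CPM in untreated and 11.2 to 16.1 CPM in CpG-pretreated libraries. As a percentage of the red pulp sum, Axl was 4.13, 6.35 and 7.08% in untreated and 4.09, 5.46 and 4.02% in CpG-pretreated libraries 2, 3 and 4. The groups overlapped in these values. They were lower after CpG in each same-numbered pair, though in pair 2 only by 4.09 against 4.13%. The largest part of the sum was Adgre1, at 328 to 369 CPM in untreated and 263 to 357 CPM in CpG-pretreated libraries. Adgre1 was called in neither fit (-0.22 on the log2 scale, edgeR adjusted p = 0.559, with the block 0.119), beside the list's median of -1.08. The percentages therefore rest largely on Adgre1. They do not show how Axl stood beside the rest of the list, where their direction may differ. In sorted cells counted in bulk, fewer cells of a type and less RNA per cell cannot be told apart, and the part of macrophages in the Axl, Mertk and Stab1 values was not tested. Summed levels of the other lists were, untreated first, 408 to 528 and 424 to 475 CPM for monocytes, 42.9 to 59.6 and 42.0 to 55.9 CPM for B cells, and 3.32 to 76.2 and 53.4 to 103 CPM for neutrophils, all overlapping. Plasmacytoid dendritic cell markers summed to 255 to 259 and to 283 to 318 CPM, which did not overlap. That sum was mostly Spib, Tcf4 and Bst2, while Siglech had a mean of 1.57 CPM over all libraries. Of the 5 plasmacytoid markers tested, 0 were called in either fit, and the groups overlapped for each. The T and NK cell sum did not overlap either (469 to 493 and 281 to 444 CPM), but it was nearly all Cd4, which CD8-negative dendritic cells of the spleen also express, and Cd3d, Cd3e and Cd3g were at most at 1.35 CPM.

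**Figure D4:**
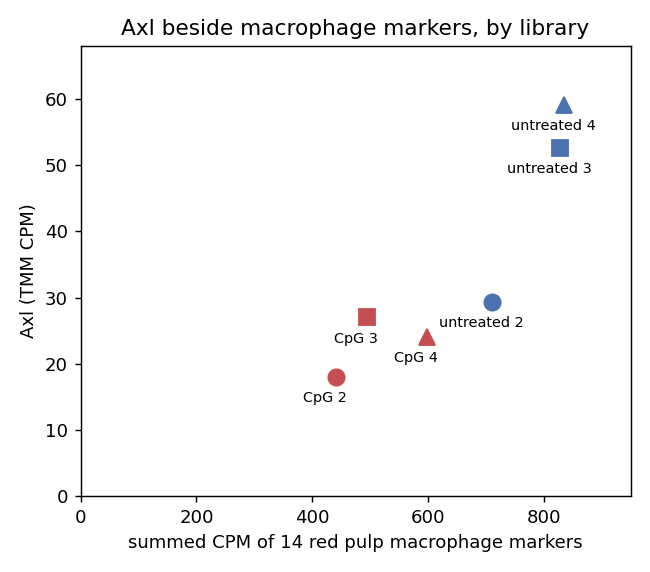
Axl (vertical axis, TMM CPM) against the summed CPM of 14 red pulp macrophage markers (horizontal axis) in the 6 libraries, untreated in blue and CpG-pretreated in red. The CpG-pretreated libraries lie lower on both axes (18.0 to 27.0 CPM of Axl and 441 to 598 CPM of markers) than the untreated ones (29.4 to 59.1 CPM and 711 to 835 CPM). Adgre1 makes up the largest part of the marker sum.

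Other genes of the uptake pathway were taken from a written list of 106 genes, of which 91 were tested. Of these, 3 fell without the block and 0 rose, and with the block 10 fell and 3 rose, where over all genes 0.500% fell and 0.474% rose without the block and 3.78% and 4.73% with it. The list's median log2 fold change was 0.01, close to that of all genes. The 3 were the opsonin genes C1qa and C1qc, whose products mark dying cells for uptake, and Cd209b, encoding a lectin of marginal zone macrophages. C1qa fell from 18.6, 20.4 and 24.7 CPM to 7.24, 8.37 and 8.06 CPM in libraries 2, 3 and 4 (log2 fold change -1.43, SE 0.16, edgeR adjusted p = 0.0236). C1qc fell by 1.55 on the log2 scale (SE 0.26, edgeR adjusted p = 0.0438). Cd209b fell from 9.13 ± 2.95 to 0.999 ± 0.448 CPM (log2 fold change -3.17, SE 0.39, edgeR adjusted p = 0.0297), and its counts may be shared with other Cd209 genes. It had 85, 46 and 91 counts in untreated and 9, 4 and 11 in CpG-pretreated libraries 2, 3 and 4. Like Stab1, it passed the filter on low counts through the group where it was high. Its call therefore adds no support to the count. All 3 genes are also in the macrophage lists named above, so they are no separate support. Without untreated replicate 3 or 4 or CpG replicate 2 or 3 edgeR called 0 of the list. Over all genes these fits called 2, 1, 0 and 0 in that order, so the 0 is nothing particular to the list. An unadjusted edgeR p under 0.05 was reached by 11 to 13 genes of the list, and by 1065 to 1176 of 11751 to 11824 genes. Without CpG replicate 4 edgeR called 5 of 92 genes of the list, beside 386 of 11856 over all genes.

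Among the 17 further receptors tested, 1 fell without the block (0.500% of all genes) and 6 with it (3.78% of all genes), and 1 rose with it (4.73% of all genes). Those called with the block included Msr1, a scavenger receptor (8.14 ± 3.71 to 2.46 ± 0.348 CPM, log2 fold change with the block -1.68, edgeR adjusted p = 0.0015), and the integrin chains that Mfge8 binds, Itgb5 (-0.96, adjusted p = 0.0244) and Itgav (-0.28, adjusted p = 0.0407). Without the block the adjusted p was 0.0764 for Msr1, 0.402 for Itgb5 and 0.608 for Itgav. The partner chain Itgb3 gave 0.10 without the block (edgeR adjusted p = 0.948). Havcr2, encoding the phosphatidylserine-binding receptor TIM-3, was among the most abundant, with 340.0 ± 19.5 CPM untreated against 278 ± 39.6 CPM (-0.29, edgeR adjusted p = 0.354, with the block 0.0280). Cd300a, an inhibitory receptor for the same lipid, had 409 ± 36.1 CPM untreated against 428 ± 47.9 CPM (0.06, edgeR adjusted p = 0.919). Ager, the RAGE receptor, had -0.89 with the block (adjusted p = 0.0146, and 0.132 without). Scarb1, a lipoprotein scavenger receptor, rose with the block by 0.27 (adjusted p = 0.0405, and 0.219 without).

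With the block 8.52% of all genes were called, against which the counts of the groups that follow are to be read. Of the 7 other bridges and opsonins tested, 3 fell with the block, the C1q chains, with C1qb at -1.06 (edgeR adjusted p = 0.0174, and 0.110 without the block). Calr, a surface signal of dying cells, gave 0.19 on the log2 scale (adjusted p = 0.541), and Anxa5, which binds phosphatidylserine, 0.18 (adjusted p = 0.488). None of the 18 engulfment signalling genes tested was called with or without the block. Dock10 and Dock2, the most abundant of them, gave 0.07 (adjusted p = 0.961) and 0.15 (adjusted p = 0.822). In the whole list, 16 of 91 genes had an unadjusted p under 0.05 by edgeR (12.8% of all genes), and DESeq2 called 7 (3.69% of all genes).

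None of the 9 find-me and do-not-eat-me genes was called in either fit, with the CD47 receptor gene Sirpa at 1375 ± 133 and 1309 ± 193 CPM (log2 fold change -0.07, edgeR adjusted p = 0.917) and the lectin gene Siglecg at -0.08 (adjusted p = 0.841). The largest difference among them was that of Cd24a, a surface glycoprotein gene that erythroid cells also express, at 10.6, 11.9 and 8.85 CPM in the untreated and 58.8, 44.5 and 14.4 CPM in the CpG libraries (log2 fold change 1.91, SE 0.44, edgeR adjusted p = 0.0895, and 0.105 with the block). Its groups did not overlap, and the erythroid markers were also lowest in CpG 4 within its group. Their part in the Cd24a value was not tested. Of 27 genes of phagosome digestion and lipid handling, the block called Abca1, a cholesterol exporter, lower (-0.90, adjusted p = 0.0408, and 0.426 without) and Slc29a3, a lysosomal nucleoside transporter, higher (0.44, adjusted p = 0.0233, and 0.316 without). Ucp2 and Cybb, the most abundant of these, gave 0.05 each (adjusted p = 0.913 and 0.954). None of the 9 genes of phosphatidylserine exposure and receptor shedding was called. The sheddases that release the TAM and other receptors from the surface, Adam17 and Adam10, had 0.10 (adjusted p = 0.813) and 0.18 (adjusted p = 0.729). Socs3, a cytokine signalling brake that TAM receptors are known to induce, was at 9.83, 11.5 and 13.6 CPM without CpG (libraries 2, 3 and 4) and at 22.1, 31.2 and 15.6 CPM in CpG-pretreated ones. Its groups did not overlap, and it rose by 0.95 with the block (edgeR adjusted p = 0.0437, and 0.118 without). Ggcx, the vitamin K-dependent carboxylase that matures Gas6 and protein S, gave 0.22 (adjusted p = 0.707).

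**Figure D5:**
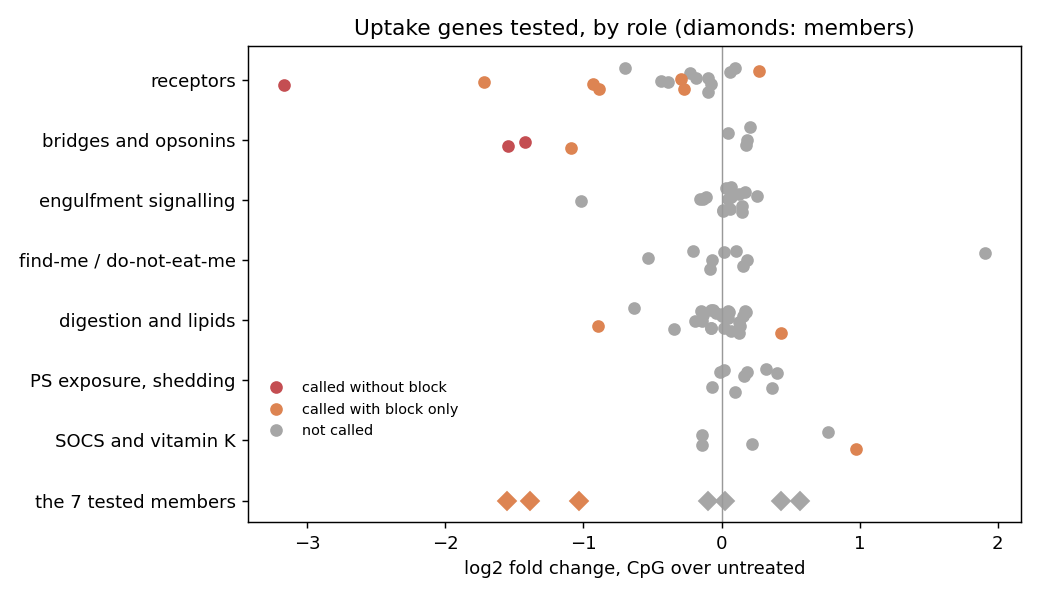
Log2 fold change of CpG-pretreated over untreated (horizontal axis, edgeR without the block) for the tested genes of each role, with vertical scatter only to separate points, and for the 7 tested members (diamonds). Red points were called without the block, orange ones only with it and grey ones in neither. Most calls are lower and lie among the receptors, bridges and members, with Cd209b farthest at -3.17. Cd209b and Stab1 passed the filter on low counts through the untreated group.

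The genes whose profile over the 6 libraries was most like that of a member were found by Pearson's r of log2 CPM, for the members with a mean of at least 10 CPM, against 10948 named genes. For Axl they were Arap1 (r = 0.997), Ccdc17 (0.989) and Uspl1 (0.988), whose own log2 fold changes were -0.34, -0.47 and -0.17 (edgeR adjusted p = 0.293, 0.360 and 0.535). For Mfge8 they were Atg12 (0.991), Lix1l (0.988) and Cryl1 (0.988). With 6 points that share groups, depth and the length trend of the libraries numbered 2, these are a description only.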

How the data were processed

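The deposited values were whole-number read counts per Entrez gene for the 6 samples, with a gene length in bases. Per the submitters' processing notes the authors used CASAVA and featureCounts with the mm10 build. The aligner, versions, strand setting and treatment of multi-mapped reads were not given in any source used here. Counts in the table of the series equalled those of each sample's own table.

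Symbols and positions came from RefSeq for GRCm38.p6, the assembly of mm10, by gene ID (25275 matched, 1904 did not, holding 0.327% of counts). Exon overlaps came from GENCODE on GRCm38. With edgeR 4.0.16 (R 4.3.3), filterByExpr retained genes (minimum count 10, minimum total 15), which were scaled by TMM and tested two-sided by the quasi-likelihood test, robust, with Benjamini-Hochberg adjustment over 11602 genes and calls at 0.05. SE is the fold change over the root of F, and 95% intervals from it. CPM are given as mean ± SD, n = 3. Alternatives used limma 3.58.1 and DESeq2 1.42.0. Counting intervals are exact and cover counting error only.

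Deviations from the group mean correlated between same-numbered libraries at 0.48, 0.25 and 0.31 for numbers 2, 3 and 4. All are over 0.1, so libraries of 1 number were also compared as pairs, from the data and not from a label. The main fit and the permutation tests do not use these pairs. Fits with the number as a block are an alternative, given where they change a call. Within groups no libraries agreed within sampling noise (chi-square per degree of freedom of 3.30 to 20.9). Members and lists were chosen with earlier results of these data known. The text names all 9 members, the other uptake genes called with or without the block, the 2 most abundant tested genes of each role, and the 3 genes most like each member of at least 10 CPM. Genes outside that rule (Itgb3, Spic, Adgre1, Cd24a, the named dendritic cell markers, plasmacytoid ones included, and the partners in overlap) were added after their values were seen.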

Additional observations from a re-analysis of the deposited data

How the results depend on the processing

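Over all genes edgeR called 113, and with the replicate block 988, with DESeq2 428, with limma-voom 41, without a filter on low counts 189 and without both libraries numbered 2 (an alternative added after seeing the data) 67. Leaving out single libraries gave 0 to 386 (0 without CpG replicate 2 or 3, where edgeR gave 1065 and 1107 with unadjusted p under 0.05, and no other tool run on those subsets). Of the wider uptake list 3 were called, 13 with the block, 7 with DESeq2 and 0 to 5 with single libraries left out. The block brought calls for Axl (-1.005), Mertk (-1.37) and Stab1 (-1.57) and changed no other call among the members. DESeq2 (-1.02) and the fit without both libraries numbered 2 (-1.13) called Axl as well. With single libraries left out, log2 fold changes ran from -1.27 to -0.83 for Axl, -1.86 to -0.77 for Mertk, -1.96 to -1.21 for Stab1, -0.19 to 0.23 for Pros1, 0.21 to 0.68 for Timd4, -0.24 to 0.10 for Mfge8 and 0.21 to 0.87 for Cd36. Pros1 turned lower without untreated replicate 2 (-0.19), CpG replicate 2 (-0.11), CpG replicate 3 (-0.05) and both libraries numbered 2 (-0.33), and Mfge8 higher without untreated replicate 2 (0.05) and CpG replicate 3 (0.10). The difference in the Axl share of TAM receptor level ran from -1.31 to 3.92 percentage points, below 0 without untreated replicate 3 (-1.25) and CpG replicate 2 (-1.31), and was 1.08 with union exon lengths (added after seeing the data). The cause of these changes was not tested. Axl, Mertk, Stab1, Timd4 and Cd36 kept their direction in all 15 alternatives. Depth limits Tyro3 and Gas6, with 4 and 11 counts in all.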
